A study of Mus musculus with 43 samples.

Results

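Chemokine ligands made by T cells are the subject here: Ccl3, Ccl4, Ccl5, Xcl1, Ccl1 and Cxcl10, the 6 genes chosen by name among 22180 genes measured on 43 arrays. Each of the 6 has 1 probe set in the value table, and that probe set carries no other symbol. The arrays hold RNA of mouse CD4 T cells with the transgenic AND receptor, which sees a moth cytochrome c peptide. The donor cells lacked Rag2 and carried CD45.1. After transfer into recipient mice they were recovered by 2 rounds of sorting on CD4, CD90.2 and CD45.1. The study asked how antigen that persists at different doses and for different times shapes these cells.

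Naive cells (5 arrays) came from recipients without the antigen transgenes or doxycycline, 3 days after transfer. All other groups but high came from iMCC recipients. These carry a doxycycline-driven invariant chain construct with the peptide in dendritic cells, and had anti-CD40 antibody 1 day before the transfer and 100 µg/ml of doxycycline to day 3. Afterwards the drinking water held 0 µg/ml for none, 10 µg/ml for low and 100 µg/ml for int (intermediate). Off recipients stayed on 100 µg/ml to day 10 and then had 0 µg/ml until the sort. The high group came from cMCC mice with 0 µg/ml of doxycycline, another strain in which the construct is always on in cells with MHC class II, so dose and recipient strain cannot be told apart in it. The labels do not state whether the high and naive recipients had the antibody. On day 10 there were 5 none, 5 low, 4 int and 4 high arrays, and on day 30 there were 5 each of none, low, int and off. The day 30 cells were sorted in a separate series, so time and sorting series cannot be told apart. No label names separate animals behind the arrays of a group, so each p-value rests on the spread among arrays, which may be partly technical.

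Chemokines are small secreted proteins that draw cells along a gradient by way of G-protein-coupled receptors. Ccl3 (MIP-1 alpha), Ccl4 (MIP-1 beta) and Ccl5 (RANTES) attract monocytes, T cells and other leukocytes, and Ccl3 and Ccl5 are ligands of the receptor Ccr1. Xcl1 (lymphotactin) attracts dendritic cells that bear Xcr1, Ccl1 is the ligand of Ccr8, and Cxcl10 (IP-10), an interferon-induced chemokine, is a ligand of Cxcr3 on Th1 cells. Activated T cells are known to release Ccl3, Ccl4 and Xcl1 soon after the receptor is engaged, while Ccl5 is a late product that memory and effector T cells keep.

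Signals are given as log2 values, and levels as means ± SD. Levels of different genes are not compared, since probe sets differ in brightness. Differences are log2 fold changes ± SE from limma, fitted over all genes and arrays, and a gene is called at an adjusted p under 0.05. Counts at an unadjusted p under 0.05 are given without the share of all genes at that threshold. They are therefore not to be read against the shares called. The median signal of an array lay between 3.28 and 3.44. Sort markers were well above that: the 9 group means ran over 9.12 to 10.0 in Cd4, 10.59 to 11.44 in Cd3e, 10.96 to 11.30 in Ptprc (CD45) and 10.12 to 11.20 in Thy1 (CD90), which was lowest in the high group. Rag2, which the donor cells lack, had group means of 2.59 to 3.04. Naive replicates 3 and 4 stood apart, with Lyz2, a myeloid gene, at 8.34 and 7.39, against 2.14 to 4.27 in the other 41 arrays.

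Promoters are shown for 3 ligands that were called in the antigen comparisons below, to set beside their values. They come from a RefSeq promoter table on build GRCm38.p6, in which 4 of the 6 genes were matched, and each gives the 250 bases before the start of transcription, 5′ to 3′ on the gene's strand. The Cxcl10 window is chr5:92348890-92349139, that of Ccl3 chr11:83649379-83649628 and that of Xcl1 chr1:164935523-164935772, all on the minus strand. Capitals mark matches, on either strand, to the NF-kB pattern (GGG, any 5 bases, CC), the interferon response pattern (GAAA, any 2 bases, GAAA) and the AP-1 pattern TGANTCA. Searched too, and not marked, were the NFAT core GGAAA and the TATA box TATAAA.
Cxcl10: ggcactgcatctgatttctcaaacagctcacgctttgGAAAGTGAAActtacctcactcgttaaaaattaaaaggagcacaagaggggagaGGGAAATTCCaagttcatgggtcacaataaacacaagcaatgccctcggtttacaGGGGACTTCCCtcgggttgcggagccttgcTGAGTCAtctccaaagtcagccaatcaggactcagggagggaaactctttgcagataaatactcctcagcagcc
Ccl3: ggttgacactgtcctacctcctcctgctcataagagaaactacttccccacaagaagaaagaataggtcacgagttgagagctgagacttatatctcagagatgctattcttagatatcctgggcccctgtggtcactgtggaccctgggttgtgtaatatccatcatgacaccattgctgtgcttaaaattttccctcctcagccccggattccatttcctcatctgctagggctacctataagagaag
Xcl1: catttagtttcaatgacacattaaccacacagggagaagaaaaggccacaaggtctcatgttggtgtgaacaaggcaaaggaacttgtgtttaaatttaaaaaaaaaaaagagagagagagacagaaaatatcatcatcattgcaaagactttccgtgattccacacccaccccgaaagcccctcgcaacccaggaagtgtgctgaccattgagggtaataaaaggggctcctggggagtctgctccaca

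In the Cxcl10 window the interferon response pattern lay 213 to 204 bases before the start. NF-kB matches lay at 159 to 150 bases and, overlapping, at 104 to 95 and 103 to 94 bases, and an AP-1 match at 74 to 68 bases. Neither the Ccl3 nor the Xcl1 window held any of these 3 letter patterns, which says nothing about the factors. The NFAT core was found 3 times in the Cxcl10 window, 2 times in that of Ccl3 and 1 time in that of Xcl1, and the TATA box in none of them (0 matches). The Ccl1 window, not printed, held overlapping NF-kB matches at 196 to 187 and 195 to 186 bases and 3 NFAT cores. Of 32851 mouse promoter windows of this length, 45.8% held the NF-kB pattern, 2.98% the interferon response pattern, 6.75% the AP-1 pattern, 55.6% the NFAT core and 12.4% the TATA box. Ccl3 (chr11:83647843-83649378) and Ccl4 (chr11:83648624-83664683) are annotated in overlapping spans, and Ccl5 (chr11:83525778-83530518) lies in the same cluster. Whether the probes of the Ccl3 and Ccl4 probe sets touch shared sequence was not tested.

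Constitutive high antigen on day 10 went with the highest mean Ccl3, Ccl4 and Xcl1 signals of the 9 groups. Of the 6 ligands 4 were higher than in the none group and 0 lower, where 2.77% of all genes were called higher and 2.48% lower. Their median change was 2.55, against 0.01 over all genes. Ccl3 stood at 9.98, 10.52, 9.44 and 8.83 in the high arrays, against 3.04, 4.26, 2.95, 2.94 and 2.68 in the none arrays. Each high array lay more than 4 log2 units above the highest none array; 3.39% of genes had all high arrays above all none arrays. The change was 6.52 ± 0.72 (limma adjusted p = 6.67e-09). Mean Ccl3 lay below the array medians in none cells of both days and in naive cells. In low cells of day 10 it was about level with them (3.40 ± 0.41). The files used here hold no detection calls. Whether the probe set was above background in these groups is not known, so the sizes of Ccl3 differences from them are those of the deposited values only. As each array holds the RNA of a sorted population, more cells with the transcript and more transcript per cell cannot be told apart.

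Xcl1 had 9.48, 10.52, 9.97 and 7.99 in the high arrays, against 5.11, 5.66, 4.2, 5.52 and 4.45 in the none arrays. Again the groups did not overlap (4.50 ± 0.68, 22.7-fold, adjusted p = 6.46e-06). Ccl4 had 6.95, 9.5, 8.39 and 7.17 in the high arrays, against 5.1, 4.35, 4.72, 3.75 and 4.02 in the none arrays. Its groups were separate as well (3.61 ± 0.50, 12.2-fold, adjusted p = 1.11e-06). Cxcl10 had 5.09, 6.15, 5.78 and 4.73 in the high arrays, against 3.61, 4.81, 3.55, 3.61 and 4.21 in the none arrays. Here 3 of 4 high arrays lay above all none arrays (1.48 ± 0.46, 2.79-fold, adjusted p = 0.0467). That call was borderline: it ended on leaving out high replicate 2, 3 or 4 or none replicate 1, 3, 4 or 5, with adjusted p up to 0.204. It ended as well with centred arrays (adjusted p = 0.0516), without a variance trend (0.055), with array quality weights (0.0557), with the replicate block (0.0525) and without 4 arrays that stood apart (0.114), namely naive replicates 3 and 4, day 10 none replicate 4 and high replicate 2.

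Ccl5 was not called between high and none (-0.89 ± 0.55, 95% interval -2.00 to 0.22). Ccl1, which T cells make on activation and which attracts Ccr8-bearing cells, had a mean below the array medians in every group but high, and whether it was above background there is not known. Its high arrays read 3.11, 4.04, 3.71 and 2.94, against 2.83 to 3.19 in the none arrays, so that 2 of 4 lay above. The change of 0.42 ± 0.14 did not pass (adjusted p = 0.0852). It passed without high replicate 2 (adjusted p = 0.0294) or high replicate 5 (adjusted p = 0.00639), and so did its difference between high and naive cells (adjusted p = 0.0462 and 0.0131) and, without replicate 5, between high and int cells (adjusted p = 0.0301).

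Within the high group, replicate 3 had the highest value of all 6 ligands and replicate 5 the lowest of 4 of them. The spread was wide for Ccl4, whose SD of 1.18 was exceeded by 44 of 22180 genes in that group, and for Xcl1, with an SD of 1.09 exceeded by 76.

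**Figure D1:**
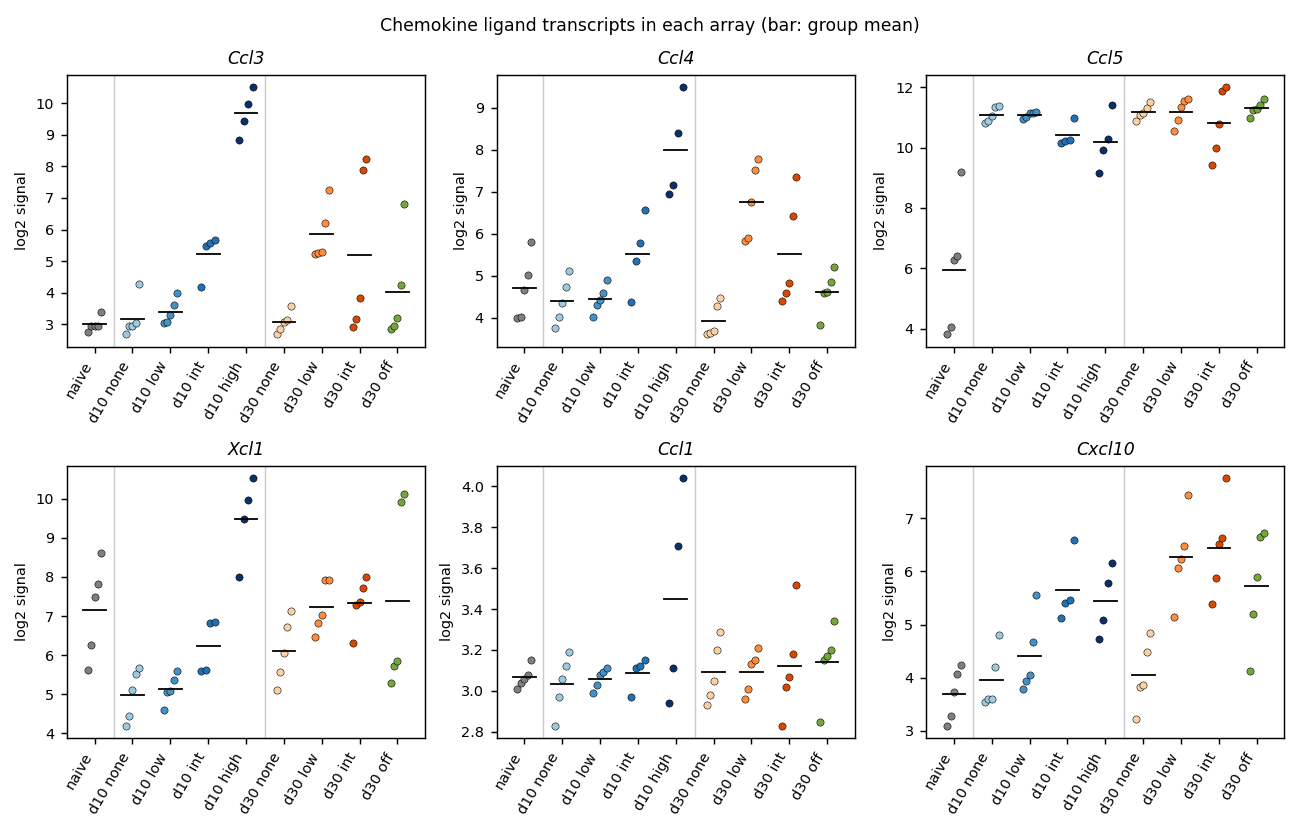
Log2 signal (vertical axes, scales differ by panel) of each of the 6 ligands in the naive, day 10 and day 30 groups; each point is 1 array and each bar a group mean. Ccl3 lies between 8.83 and 10.52 in the high group, while Ccl5 lies at or above 9.16 in each primed group and Ccl1 between 2.83 and 4.04 throughout.

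The int and low cells of day 10 were set against the same none arrays. Between intermediate antigen and none limma called 0 of the 6 ligands, where 1.24% of genes were called. At an unadjusted p under 0.05 there were 3, a count not to be read against that share. Cxcl10 stood at 5.13, 5.47, 5.41 and 6.58 in the int arrays, against 3.61, 4.81, 3.55, 3.61 and 4.21 in the none arrays. The groups did not overlap, as for 2.66% of genes in that direction, and the change of 1.69 ± 0.46 fell just short (adjusted p = 0.0507). It passed without none replicate 2 (adjusted p = 0.0284), with array quality weights (adjusted p = 0.0114) and among brighter genes alone (adjusted p = 0.0279). Ccl3 stood at 4.17, 5.68, 5.48 and 5.59 in the int arrays, with int replicate 1 just under the highest none value of 4.26. Its difference of 2.06 ± 0.72 had an adjusted p of 0.214.

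These calls depend on which arrays set the spread. In a fit of the int and none arrays alone the SE of Ccl3 was 0.33, and Ccl3 (adjusted p = 0.00237), Cxcl10 (adjusted p = 0.00643) and, in the lower direction, Ccl5 (-0.68, adjusted p = 0.0401) were called. Ccl4 was at 1.13 ± 0.50 (95% interval 0.13 to 2.13) and Xcl1 at 1.24 ± 0.68 (95% interval -0.13 to 2.60) in the fit of all arrays, and neither was called in either fit.

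Low antigen on day 10 gave no call in the 6 ligands at all, with 0 of them at an unadjusted p under 0.05 and 0.00451% of all genes called. The differences ran from -0.004 for Ccl5 (95% interval -1.05 to 1.04) to 0.44 for Cxcl10 (95% interval -0.43 to 1.32). Intervals of this width leave room for changes of about 1 log2 unit in Ccl4, Ccl5, Xcl1, Ccl3 and Cxcl10. For Ccl1 the interval was narrower, -0.25 to 0.30.

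Of the 6 ligands 3 were higher in high than in int cells, where 1.4% of genes were called higher: Ccl3 (4.46 ± 0.75, adjusted p = 9.2e-05), Xcl1 (3.27 ± 0.71, adjusted p = 0.00334) and Ccl4 (2.49 ± 0.52, adjusted p = 0.00226). In each of these 3 all 4 high arrays lay above all 4 int arrays, as for 3.78% of genes. Cxcl10 averaged 5.44 ± 0.64 in high and 5.65 ± 0.64 in int cells (SD, n = 4 each), a difference of -0.21 with a 95% interval of -1.18 to 0.76. Against low cells, int cells had 0 of 6 ligands called by limma (3 at an unadjusted p under 0.05), where 0.541% of genes were called. Fitted on those arrays alone, Ccl3 (1.83, adjusted p = 0.00343) and, lower, Ccl5 (-0.68, adjusted p = 0.023) were called, and with array quality weights Cxcl10 (1.38, adjusted p = 0.0482).

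On day 30 the low dose, which had left the ligands uncalled on day 10, went with higher Ccl3, Ccl4 and Cxcl10. These were 3 of 6, where 0.388% of genes were called higher in low than in none cells. Ccl4 stood at 5.83, 7.78, 5.9, 6.76 and 7.53 in the low arrays, against 3.67, 3.6, 4.47, 3.63 and 4.28 in the none arrays. The groups were separate, as for 0.938% of genes in that direction (2.83 ± 0.47, 7.11-fold, adjusted p = 0.000349). Ccl3 stood at 5.22, 7.25, 6.21, 5.27 and 5.28 in the low arrays, against 2.86, 3.15, 3.07, 2.68 and 3.59 in the none arrays. The change was 2.78 ± 0.67 (adjusted p = 0.0351), against none values of which 4 of 5 lay below the array medians. This call was lost without low replicate 2, 3 or 5 or without none replicate 1, 2, 3 or 4 (adjusted p of 0.051 to 0.123). With array quality weights it was lost too (adjusted p = 0.0947). Every low array was nonetheless above every none array.

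Cxcl10 stood at 6.47, 6.24, 6.06, 5.14 and 7.43 in the day 30 low arrays, against 4.49, 4.85, 3.23, 3.83 and 3.86 in the none arrays. All 5 low arrays were higher (2.22 ± 0.43, 4.65-fold, adjusted p = 0.0037). Ccl5 (-0.002, 95% interval -1.05 to 1.04), Xcl1 (1.11, 95% interval -0.18 to 2.40) and Ccl1 (0.002, 95% interval -0.27 to 0.27) were not called.

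The low cells of day 30, set against those of day 10, had Ccl3, Ccl4 and Cxcl10 higher, which is 3 of 6 on the same day 30 low arrays, where 0.866% of genes were called higher. For Ccl3 and Ccl4 all 5 arrays of day 30 lay above all of day 10, as for 2.13% of genes, and for Cxcl10 4 did. Ccl4 changed by 2.31 ± 0.47 (adjusted p = 0.003), Cxcl10 by 1.87 ± 0.43 (adjusted p = 0.0108) and Ccl3 by 2.45 ± 0.67 (adjusted p = 0.0351). Ccl3 read 3.03 to 4 in the day 10 low arrays, about level with the array medians, so the limit on its sizes given above holds here too. The Ccl3 call ended on leaving out any day 10 low array or day 30 low replicate 2 or 3, with adjusted p up to 0.0928. Xcl1 averaged 7.23 ± 0.66 on day 30 and 5.14 ± 0.38 on day 10 in low cells (SD, n = 5 each). All 5 arrays of day 30 lay above all of day 10, but its 2.09 ± 0.64 missed the threshold (adjusted p = 0.0605). It passed with array quality weights (adjusted p = 0.0216), in a fit of the low arrays alone (adjusted p = 0.00236) and among brighter genes (adjusted p = 0.0367). A direct test of whether the low effect differed between the days, the day 30 difference from none minus the day 10 one, called 0 of 6 ligands by limma (3 at an unadjusted p under 0.05), where 0.0316% of genes were called. Ccl4 came to 2.77 ± 0.66 (adjusted p = 0.152), Ccl3 to 2.55 ± 0.95 (adjusted p = 0.757) and Cxcl10 to 1.77 ± 0.61 (adjusted p = 0.727). In a fit of those 4 groups alone Ccl4 (adjusted p = 0.012) and Ccl3 (adjusted p = 0.0209) were called.

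**Figure D2:**
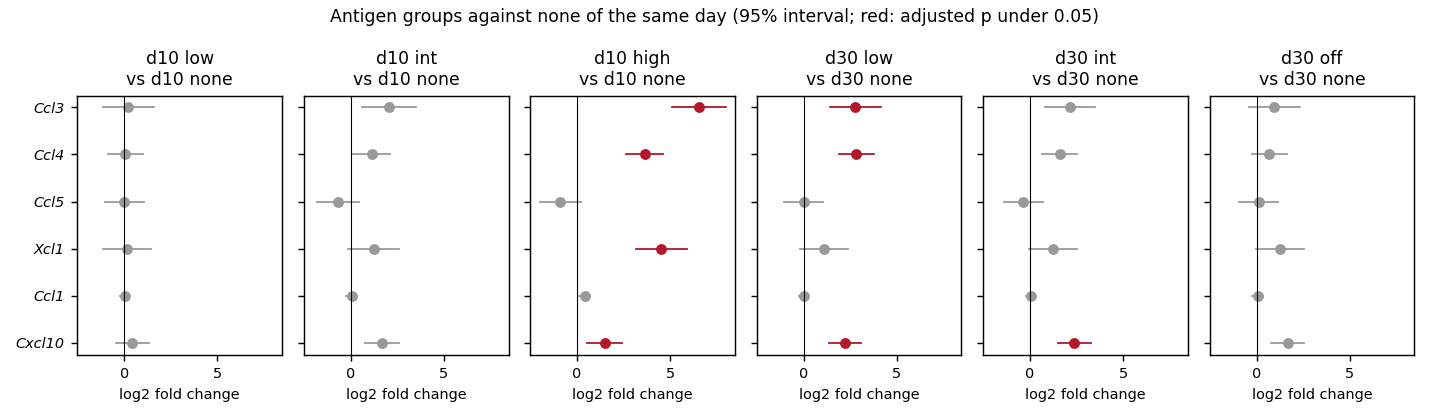
Log2 fold change (horizontal axes) of each ligand in each antigen group against the none arrays of that day, with 95% intervals from limma; red marks an adjusted p under 0.05. The high group of day 10 has 4 red ligands and the low group of day 30 has 3, while Ccl5 and Ccl1 are red in no panel.

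Intermediate antigen kept to day 30 gave 1 call of 6, where 1.42% of genes were called higher than in none. That was Cxcl10, at 6.51, 6.63, 5.38, 5.88 and 7.75 in the int arrays, all above the 3.23 to 4.85 of the none arrays, which are shared with the low comparison; 1.81% of genes had all int arrays above all none arrays (2.38 ± 0.43, 5.20-fold, adjusted p = 0.000393). Ccl3 was split within the int group. Replicates 3 and 4 read 8.23 and 7.89, and replicates 1, 2 and 5 read 2.91, 3.83 and 3.18, against 2.68 to 3.59 in the none arrays. Its SD of 2.63 was exceeded by 1 of 22180 genes in that group, and the mean difference of 2.14 ± 0.67 (adjusted p = 0.0874) describes neither set of arrays. On leaving out int replicate 1 or 5 it was called (adjusted p = 0.0193 and 0.0287).

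The same 2 arrays were the highest of the int group for Ccl4 (6.41 and 7.36, against 4.4 to 4.82 in the other 3) and for Ccl5 (12.01 and 11.86, against 9.42 to 10.79). For Cxcl10 replicates 3 and 4 were the lowest of the group, at 5.38 and 5.88. Ccl4 as a whole differed from none by 1.59 ± 0.47 (adjusted p = 0.0605), with 4 of 5 int arrays above all none arrays. It was called on leaving out int replicate 1, 2 or 5 (adjusted p of 0.0293 to 0.0492), and with the replicate number as a block (adjusted p = 0.044), without 4 arrays that stood apart (adjusted p = 0.0456) and among brighter genes alone (adjusted p = 0.0386). Between int and low cells of day 30 limma called 0 of 6 ligands (1 at an unadjusted p under 0.05), where 0.546% of genes were called. Ccl4 averaged 5.52 ± 1.30 in int and 6.76 ± 0.90 in low cells (SD, n = 5 each; difference -1.24, 95% interval -2.19 to -0.30, adjusted p = 0.345).

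Between the int cells of day 30 and day 10 limma called 0 of 6 ligands, where 0.712% of genes were called. For the int effect on day 30 minus that on day 10 it called 0 of 6 as well, where 0.0902% of genes were called, and in both the ligands had 0 at an unadjusted p under 0.05. The 95% interval of that last difference was -1.90 to 2.07 for Ccl3 and -0.58 to 1.96 for Cxcl10.

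In Xcl1, Ccl3 and Cxcl10, arrays of cells whose antigen was withdrawn on day 10 were unlike each other on day 30. Ccl4 (SD 0.51), Ccl5 (SD 0.23) and Ccl1 (SD 0.18) spread less in these off arrays. None of the 6 ligands was called between off and none (0 by limma, with 1 at an unadjusted p under 0.05), where 0.266% of genes were called, nor between off and int, where 0.464% were and 0 ligands had an unadjusted p under 0.05. Xcl1 read 9.92 and 10.12 in off replicates 1 and 2 and 5.72, 5.84 and 5.28 in replicates 3 to 5, against 5.11 to 7.13 in none. Off replicates 1 and 2 were above every array of day 30 outside their group, and the SD of 2.42 was exceeded by 1 of 22180 genes. Ccl3 was highest in those 2 arrays as well, at 4.25 and 6.81, against 2.85 to 3.21 in the other off arrays.

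Cxcl10 in off cells read 6.72, 6.64, 5.9, 5.19 and 4.13, with 4 of 5 arrays above all none arrays. Its difference from none was 1.66 ± 0.43 (adjusted p = 0.0918), called on leaving out off replicate 5 (adjusted p = 0.015). From int it was -0.71 (95% interval -1.59 to 0.16). Of 11 myeloid and dendritic markers 2 were called higher in off than in none cells and 0 lower, where 0.266% of all genes were called. These were the neutrophil genes S100a8 (3.44 ± 0.79) and S100a9 (2.87 ± 0.67). Both had their lowest mean of the 9 groups in day 30 none cells (3.46 and 3.57). Means of Cd14, Itgam and H2-Ab1 were lower in off than in none cells, and those of the other markers higher. The mean of the 11 was 3.89 to 4.51 in off and 3.06 to 3.77 in none arrays, so the groups did not overlap. Their part in the ligand values was not tested.

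**Figure D3:**
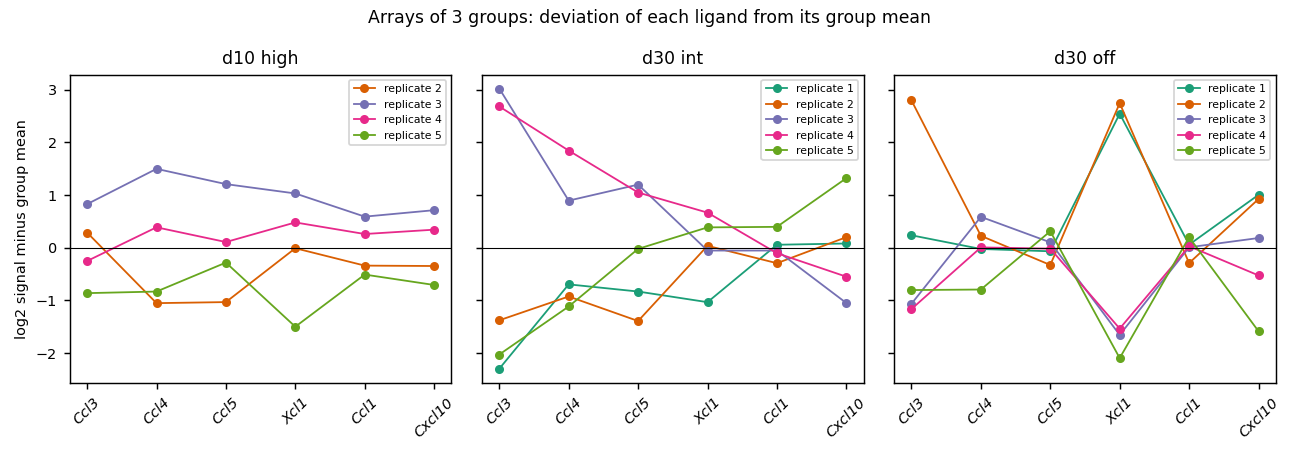
Log2 signal minus the group mean (vertical axis) of the 6 ligands in the day 10 high, day 30 int and day 30 off groups; each line is 1 array. In the high group replicate 3 is on top for all 6 ligands, in the int group replicates 3 and 4 are on top for Ccl3, Ccl4 and Ccl5, and in the off group replicates 1 and 2 are on top for Xcl1.

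Ccl5, which CD8 and Th1 cells make long after priming, had its lowest mean in naive cells. Naive arrays read 3.81, 4.05, 9.18, 6.27 and 6.39. All other groups averaged 10.19 to 11.31, and their lowest single value was 9.16, in a high array. Naive replicate 3 was level with that array and below all others. Of the 6 ligands, Ccl5 alone was higher in none cells than in naive cells on day 10 (where 1.9% of genes were called higher) and on day 30 (1.98%), by 5.15 ± 0.52 (adjusted p = 1.21e-09) and 5.25 ± 0.52 (adjusted p = 7.77e-10). Time after transfer, recipients and doxycycline differ from the naive group as well. Naive replicate 3, at 9.18, was the array with the most Lyz2. The mean of the 11 myeloid and dendritic markers was 3.57 to 4.46 in day 10 none and 3.70 to 6.33 in naive arrays, and that of the 4 B cell markers 3.02 to 3.34 in day 10 none and 3.38 to 6.38 in naive arrays. Against naive cells Ccl5 was also higher in int (4.46 ± 0.55, adjusted p = 1.57e-07) and in high cells of day 10 (4.25 ± 0.55, adjusted p = 2.21e-07). Without naive replicates 3 and 4, day 10 none replicate 4 and high replicate 2 the calls of Ccl5 against naive remained.

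The day 10 none cells had less Xcl1 than naive cells. Its values were 5.11, 5.66, 4.2, 5.52 and 4.45 in none, against 6.27, 5.63, 8.62, 7.81 and 7.49 in naive cells, the 2 arrays richest in Lyz2 being the 2 highest. The change of -2.18 ± 0.64 was called (adjusted p = 0.0456), among 1.41% of genes called lower, but not without naive replicates 3 and 4 and the other 2 arrays (-1.61, adjusted p = 0.516), nor with the replicate block (adjusted p = 0.0585), with centred arrays (adjusted p = 0.051) or without a variance trend (adjusted p = 0.0582). It also ended on leaving out naive replicate 3, 4 or 5 or none replicate 1, 2, 3 or 5 (adjusted p up to 0.199). On day 30 none cells averaged 6.12 ± 0.82 and naive cells 7.16 ± 1.20 (SD, n = 5 each; difference -1.05, 95% interval -2.33 to 0.24). Xcl1 in high cells exceeded even the naive level (2.33 ± 0.68, adjusted p = 0.0326), a call that ended without high replicate 2, 3 or 4 or naive replicate 1 or 2 (adjusted p up to 0.166).

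Of the 6 ligands 5 were higher in high than in naive cells, where 2.91% of genes were called higher, Ccl3 by 6.69 ± 0.72 (adjusted p = 2.09e-09; naive mean below the array medians), Ccl4 by 3.31 ± 0.50 (adjusted p = 4.83e-06) and Cxcl10 by 1.75 ± 0.46 (adjusted p = 0.0131). Int cells of day 10 had 2 higher, where 2.14% of genes were, Ccl5 and Cxcl10 (1.96 ± 0.46, adjusted p = 0.00658). The Cxcl10 call ended without int replicate 4 (adjusted p = 0.0635), and that of high cells without high replicate 3 or 4 (adjusted p = 0.0857 and 0.0548) or without the 4 arrays above (adjusted p = 0.0584). Ccl3 in int against naive cells was at 2.23 ± 0.72 (adjusted p = 0.0825, 4 of 4 arrays above), and was called when only these arrays were fitted (adjusted p = 0.000324), with array weights (adjusted p = 0.0414) and among brighter genes (adjusted p = 0.0488). Between the none cells of day 30 and those of day 10 no ligand was called (0 of 6, and 0 at an unadjusted p under 0.05, where 3.43% of genes were called). The Ccl5 difference was 0.10 with a 95% interval of -0.94 to 1.15.

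Ordered by group mean, Ccl3 was highest in day 10 high (9.69 ± 0.72), then day 30 low (5.85 ± 0.89), day 10 int (5.23 ± 0.71), day 30 int (5.21 ± 2.63), day 30 off (4.01 ± 1.66), day 10 low (3.40 ± 0.41), day 10 none (3.17 ± 0.62), day 30 none (3.07 ± 0.34) and naive (3.00 ± 0.24). Only the step below the high group was larger than the larger SD of the neighbours, and there the ranges did not overlap. For Ccl4 the order was day 10 high (8.00 ± 1.18), day 30 low (6.76 ± 0.90), day 10 int (5.52 ± 0.91), day 30 int (5.52 ± 1.30), naive (4.70 ± 0.76), day 30 off (4.61 ± 0.51), day 10 low (4.45 ± 0.33), day 10 none (4.39 ± 0.54) and day 30 none (3.93 ± 0.41). Here the first step and the second exceeded that spread, but in both the ranges of the neighbours overlapped.

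Xcl1 ran from day 10 high (9.49 ± 1.09) over day 30 off (7.38 ± 2.42), day 30 int (7.33 ± 0.65), day 30 low (7.23 ± 0.66), naive (7.16 ± 1.20), day 10 int (6.22 ± 0.71) and day 30 none (6.12 ± 0.82) to day 10 low (5.14 ± 0.38) and day 10 none (4.99 ± 0.64), with a step beyond the spread only above day 10 low. Cxcl10 had day 30 int (6.43 ± 0.89), day 30 low (6.27 ± 0.82), day 30 off (5.72 ± 1.08), day 10 int (5.65 ± 0.64) and day 10 high (5.44 ± 0.64) in front. After a step beyond the spread came day 10 low (4.40 ± 0.72), day 30 none (4.05 ± 0.63), day 10 none (3.96 ± 0.55) and naive (3.69 ± 0.49). Single arrays overlapped across this step, with day 10 high from 4.73 and day 10 low up to 5.55. Ccl5 ran over day 30 off (11.31 ± 0.23), day 30 none (11.19 ± 0.24), day 30 low (11.19 ± 0.45), day 10 none (11.09 ± 0.25), day 10 low (11.08 ± 0.10), day 30 int (10.81 ± 1.14), day 10 int (10.40 ± 0.38) and day 10 high (10.19 ± 0.93) to naive (5.94 ± 2.17), and the last step alone exceeded the spread. Ccl1 had no such step, its means running from 3.45 ± 0.51 in day 10 high to 3.03 ± 0.14 in day 10 none. At the steps named for Xcl1 and Ccl5 the ranges of the neighbours overlapped as well.

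The genes most like each ligand over the 43 arrays, by Pearson's r and as a description of arrays that share groups are given here. Ccl3 ran closest to Il21, the cytokine of follicular helper cells (r = 0.85), then Ccl4 (0.84) and the transcription factor Nfil3 (0.80). For Ccl4 they were Ccl3 (0.84), the acyl-CoA hydrolase Acot7 (0.81) and Plekha8 (0.77). Ccl5 ran with Cxcr3 (0.90), AW112010 (0.85) and the granule gene Nkg7 (0.85). Xcl1 ran with the myosin gene Myo1e (0.82), Tnfrsf4, which encodes the costimulatory receptor OX40 (0.78), and Rilpl2 (0.77). Cxcl10 ran with Ifng, the gene of interferon gamma (0.82), the inhibitory receptor Tigit (0.80) and the prostaglandin receptor Ptger2 (0.78). Ccl1, whose mean lay below the array medians in all groups but high, reached 0.67 with Epdr1, 0.64 with Igfbp7 and 0.64 with Rbmxl2.

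Il21 averaged 3.59 ± 0.28, 4.34 ± 0.30, 6.75 ± 0.45 and 9.57 ± 0.26 in none, low, int and high cells of day 10. The 5 day 30 int arrays had much Il21 (7.08 ± 0.70) whether their Ccl3 was high or low, as the plot of ligands against their nearest genes shows. Ifng averaged 4.54 ± 0.63, 4.49 ± 0.35, 6.76 ± 0.41 and 6.98 ± 0.81 in the same 4 groups of day 10, where the int and high means lay within their SDs of each other, as they did in Cxcl10.

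**Figure D4:**
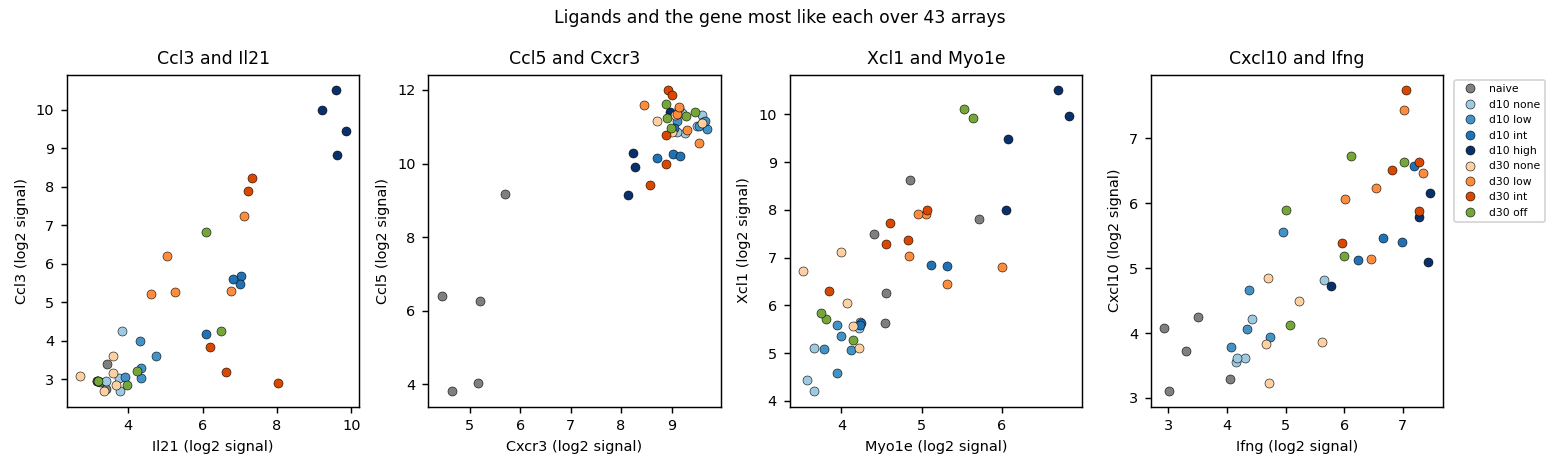
Log2 signal of 4 ligands (vertical axes) against that of the gene with the highest Pearson r over 43 arrays (horizontal axes); each point is 1 array, coloured by group. Ccl3 and Il21 (r = 0.85) part in 3 day 30 int arrays with Ccl3 of 2.91 to 3.83, and in Ccl5 and Cxcr3 (r = 0.90) the naive arrays lie apart from all others.

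Ligands were also set against each other after taking out the group means, over the same 43 arrays. Ccl3 and Ccl4 then had a Pearson r of 0.51 (rho = 0.37), Ccl3 and Xcl1 0.47 (rho = 0.51), Ccl4 and Ccl5 0.44 (rho = 0.24), and Xcl1 and Cxcl10 0.42 (rho = 0.33). Cxcl10 and Ccl3 had -0.04 (rho = 0.06). Both transcripts of a pair come from 1 array, and no test was made of these values.

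Receptors of these ligands are given by 5 genes, Cxcr3, Ccr8, Ccr1, Ccr3 and Xcr1. Between antigen groups and none 1 of the 5 was called, in 1 comparison, where 2.48% of all genes were called lower. Cxcr3 was lower in high than in none cells of day 10 (-0.93 ± 0.20, adjusted p = 0.00208). Cxcr3 averaged 8.41 ± 0.38 in high cells (SD, n = 4) and 9.34 ± 0.21 in none cells (SD, n = 5), against 5.03 ± 0.50 in naive cells (SD, n = 5). Ccr8, the receptor of Ccl1, was lower in day 10 none than in naive cells (-2.72 ± 0.28, adjusted p = 2.09e-09). It was also called lower than in naive cells in day 30 none (-2.22 ± 0.28), day 10 int (-2.58 ± 0.30) and high cells (-1.97 ± 0.30). Cxcr3 was called higher than in naive cells in day 10 none (4.31 ± 0.19), day 30 none (4.07 ± 0.19), day 10 int (3.96 ± 0.20) and high cells (3.37 ± 0.20). Of all genes 1.9% to 2.91% were called higher in these comparisons. Group means of Ccr1 (2.50 to 2.94), Ccr3 (2.31 to 2.73) and Xcr1 (2.81 to 3.22) lay below the array medians.

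Chemokine ligands outside this set gave no call. Of 31 listed, 29 were measured, and 0 were called by limma in any of the 19 comparisons. Over all genes, for example, 2.77% were called higher and 2.48% lower in high against none cells of day 10. Low against none cells of day 30 had 0.388% and 0.266%. The 6 ligands and the list were chosen with earlier results of these data known, so their numbers of calls are not compared. At an unadjusted p under 0.05 the 29 gave 0 to 4 genes per comparison. Means over the 29 stayed at 3.05 to 3.29 in the 43 arrays. That is about level with or below the array medians of 3.28 to 3.44, where changes are hard to see.

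Interferon-induced genes were looked at beside Cxcl10, whose promoter window holds the interferon response pattern. Of 17 measured, 0 were higher in high than in none cells of day 10 and 3 were lower. The median change of the 17 was -0.38, against 0.01 over all genes, where 2.77% were called higher and 2.48% lower. The lower ones were Usp18 (-1.29 ± 0.24, adjusted p = 0.000287), Ifit2 (-1.26 ± 0.39, adjusted p = 0.0463) and Ifit1 (-1.22 ± 0.29, adjusted p = 0.00537). Between low and none cells of day 30, 0 of the 17 were called, where 0.388% of all genes were called higher and 0.266% lower. Between int and none cells of day 30, 0 were called as well, where 1.42% were higher and 0.794% lower. At such shares few or no calls among 17 genes are likely, so these counts say little. Cxcl10 was higher in both comparisons, and its link to interferon was not tested.

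The list of transcription factors of activated and effector T cells was also chosen with earlier results of these data known. Its counts are therefore not read as enrichment. Of the 30 factors 10 were higher and 2 lower in high than in none cells of day 10. Their median change was 0.34, against 0.01 over all genes, where 2.77% were called higher and 2.48% lower. Examples are Bhlhe40 (3.26 ± 0.38), Nr4a2 (2.38 ± 0.35), Nr4a1 (2.22 ± 0.29) and Irf4 (1.79 ± 0.30), of which the NR4A pair and Irf4 are induced by receptor signals. In int against none cells of day 10, 7 were higher and 2 lower (median 0.46, against -0.01), where 0.784% of genes were called higher and 0.46% lower, with Eomes (3.15 ± 0.51), Irf4 (2.82 ± 0.30) and Nr4a1 (2.79 ± 0.29) up and Jun (-2.89 ± 0.54) down. In low against none cells of day 30, 3 were higher and 1 lower, where 0.388% and 0.266% of all genes were, Maf (2.03 ± 0.46), Irf8 (1.89 ± 0.30) and Irf4 (1.76 ± 0.29) being the higher ones and Runx3 the lower (-0.70 ± 0.18). In int against none cells of day 30, 10 were higher and 1 lower, where 1.42% and 0.794% of all genes were, with Eomes (4.11 ± 0.48), Maf (3.27 ± 0.46), Irf4 (2.84 ± 0.29) and Egr2 (1.89 ± 0.29) up.

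Natural killer cells, CD8 cells, myeloid cells and platelets also make these chemokines, so their markers are given for the comparisons among antigen doses and days in which ligands were called. Of 6 measured NK, CD8 and gamma-delta markers, 1 was higher in high than in none cells of day 10, where 2.77% of all genes were called higher and 2.48% lower. This was Klrb1c, with means of 5.86 in high and 4.26 in none cells (1.60 ± 0.29). The mean over the 6 was 3.81 to 4.22 in high and 3.67 to 3.92 in none arrays. Cd8a (3.14 in high, 3.16 in none) and the NK gene Ncr1 (2.90 in high, 2.77 in none) lay below the array medians. In high against int cells 1 was lower, Eomes (-2.88 ± 0.53, adjusted p = 0.000378), and the mean over the 6 was 3.91 to 4.50 in int arrays. In low against none cells of day 30, 0 of the 6 were called, with list means of 3.93 to 4.36 in low and 3.50 to 4.05 in none arrays. Low cells of day 30 against those of day 10, whose list means were 3.82 to 4.28, had 0 called too. In int against none cells of day 30, where 1.42% of all genes were called higher, 1 was higher, Eomes, which the list of transcription factors holds too. Of 11 myeloid and dendritic, 4 B cell and 3 erythroid and platelet markers, 0 were called in any of these 5 comparisons. Of all genes 0.388% to 2.77% were called higher in them. At such shares lists of 3 to 11 genes are likely to hold few or no calls, so a lack of calls says little about such cells. The myeloid list mean was 3.67 to 3.82 in high, 3.44 to 3.83 in int, 3.51 to 4.10 in low and 3.57 to 4.46 in none arrays of day 10, and 3.58 to 3.75 in low, 3.46 to 3.90 in int and 3.06 to 3.77 in none arrays of day 30. The part of such cells in the ligand values was not tested further.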

How the data were processed

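Each of 43 samples of sorted T cells had 1 single-colour array. Per the labels' protocols the RNA was amplified with a kit for small inputs (Ovation Pico WTA System) and labelled with biotin. The authors deposited log2 values per probe set, used as deposited; the log base was judged from their range of 1.46 to 13.87. How the signals were corrected for background, summarized and normalized is not given in the sources used here. Of 41345 probe sets, 23521 carried 1 symbol; the one with the highest mean was kept per gene, leaving 22180 genes, with no intensity filter. limma 3.58.1 in R 4.3.3 fitted 1 mean per group for 9 groups over all arrays (lmFit, eBayes with a trend), giving 17 group differences and 2 interactions, with Benjamini-Hochberg adjustment over all genes; the code was checked on simulated data. The members, the lists and the rule for named genes (all 6 ligands, the receptors, of each list at most 4 called genes, by size of change, the 3 genes most like each ligand) were chosen with earlier results of these data known. Same-numbered arrays of different groups did not deviate together: their mean correlation was 0.0017 over 164 pairs, and in 0 of 36 pairs of groups were all above 0.1. Alternatives were another normalization, centring, no variance trend, array weights, only the groups compared, another probe set rule, brighter genes only, each array left out, 4 arrays left out and a replicate block. The number of arrays limits the precision.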

Additional observations from a re-analysis of the deposited data

Results flagged for a closer look

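Dixon's gap test was run on the 6 ligands in 9 groups, 54 in all, and marked 3 arrays as far from the others of their group; chance marks about 1 in 20 groups. Ccl3 in day 10 int replicate 1 stood at 4.17, with the next array at 5.48. Ccl3 in day 10 none replicate 2 stood at 4.26, with the next at 3.04, and these 2 arrays are the ones that overlap between int and none. Ccl5 in day 10 int replicate 2 stood at 10.97, with the next at 10.26. The split of Ccl3 in day 30 int and of Xcl1 in day 30 off into 2 high and 3 low arrays is of a kind that this test does not mark.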

How the results depend on the processing

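Calls of the 6 ligands were recomputed under 9 alternatives, of which quantile normalization moved no count of called ligands by over 1.5 times. Choosing probe sets by variance could change no value of a ligand, since each has 1 probe set. Only counts that moved by over 1.5 times are listed next. Smaller moves came from calls given above, as when Cxcl10 was lost between high and none cells with centred arrays. Ccl3 was lost between low and none cells of day 30 with array weights. Between day 10 none and naive cells the 2 called ligands became 1 with centred arrays, without a variance trend, without the 4 arrays named above and with the replicate block. Between int and none cells of day 10 the count of 0 became 1 with array weights, 1 among brighter genes and 3 when only those arrays were fitted. Between int and low cells of day 10 the count of 0 became 1 with array weights and 2 when only those arrays were fitted. That fit also turned 0 into 2 for the low effect on day 30 minus that on day 10. Between int and none cells of day 30 the count of 1 became 2 among brighter genes, without the 4 arrays and with the replicate block.

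The replicate numbers did not pair the arrays. The block also ended the Cxcl10 call between high and none cells (adjusted p = 0.0525), and it changed no call of a ligand beyond those given here and in the report. With each array left out in turn, the count ran from 1 to 2 for int against naive, from 0 to 1 for int against none on day 10, from 3 to 6 for high against naive, from 1 to 2 for day 10 none against naive, from 1 to 3 for int against none on day 30 and from 0 to 1 for off against none. It ran from 3 to 5 for high against none and from 3 to 4 for high against int. For low against none on day 30, and for low cells of day 30 against day 10, it ran from 2 to 3. In the other comparisons it stayed the same. No called value changed sign. Over the 6 ligands and 19 comparisons, 976 recomputed values under the alternatives stayed on their side of the threshold, 11 calls were lost and 20 gained, and with an array left out 1158 stayed, 36 were lost and 12 gained. The dimmest ligand, Ccl1, had a mean below the array medians in every group but high, where small changes are hard to see.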
